A study of Mus musculus with 16 samples.

Results

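Runx2, Sp7 and Dlx5, which encode transcription factors of the osteoblast, and Sparc, Bglap, Bglap2, Ibsp, Spp1 and Postn, which encode noncollagenous proteins of bone matrix, were followed in femoral cortical bone after hindlimb unloading. These 9 genes were picked by symbol from the 36829 features listed for each mouse, and each symbol was found once. All 9 had a mean of at least 0.5 RPKM (reads per kilobase of gene, scaled to the number of reads in the library) over the 16 mice, as had 16973 features in all. The mice were C57Bl/6 females of 11 weeks. In 8 of them the hind limbs were kept off the cage floor for 7 days by a harness taped to the tail (HLU), and the other 8 bore weight normally (Control). RNA came from the whole bone shaft after its ends had been cut off and its marrow flushed, so it held the transcripts of every cell type left in the shaft. Each mouse gave its own library.

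Osteoblasts lay down bone matrix and mineralize it, and some of them become the osteocytes embedded in it. Runx2 is needed for precursors to enter this lineage, Sp7 (osterix) acts downstream of it, and Dlx5 is a homeodomain factor that activates osteoblast genes. Most of the organic matrix is type I collagen. Among the other proteins, Sparc (osteonectin) binds collagen and mineral, Bglap and Bglap2 both encode osteocalcin, a small protein that osteoblasts secrete, and Postn encodes periostin, which is abundant in the periosteum. Ibsp (bone sialoprotein) and Spp1 (osteopontin) encode acidic glycoproteins that bind mineral and integrins, and Spp1 is also made by osteoclasts, macrophages and other cells.

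The coding sequences of the osteocalcin genes are shown because they bear on how far the reads of Bglap and Bglap2 could be told apart. They were read from the GENCODE M21 transcripts. Capitals in Bglap and Bglap2 mark the bases at which these 2 genes differ, and capitals in Bglap3 mark the bases at which it differs from Bglap.
Bglap: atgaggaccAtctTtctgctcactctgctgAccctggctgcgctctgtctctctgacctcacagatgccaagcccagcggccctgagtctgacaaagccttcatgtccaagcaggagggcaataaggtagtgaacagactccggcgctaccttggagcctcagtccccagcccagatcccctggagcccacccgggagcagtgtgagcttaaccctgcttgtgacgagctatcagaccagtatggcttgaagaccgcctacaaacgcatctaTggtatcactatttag
Bglap2: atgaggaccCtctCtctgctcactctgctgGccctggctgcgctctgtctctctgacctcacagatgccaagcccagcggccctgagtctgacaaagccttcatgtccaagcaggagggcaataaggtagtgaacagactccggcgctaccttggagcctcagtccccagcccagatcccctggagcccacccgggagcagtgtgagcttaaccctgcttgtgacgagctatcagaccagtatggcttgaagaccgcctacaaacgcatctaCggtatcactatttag
Bglap3: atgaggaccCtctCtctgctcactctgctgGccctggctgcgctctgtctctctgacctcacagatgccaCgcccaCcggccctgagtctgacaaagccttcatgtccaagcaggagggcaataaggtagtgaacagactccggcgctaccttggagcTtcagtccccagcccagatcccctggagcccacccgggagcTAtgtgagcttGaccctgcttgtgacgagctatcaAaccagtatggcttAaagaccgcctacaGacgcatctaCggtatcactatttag
Over 288 bases Bglap and Bglap2 differed at 4 positions (98.6% identity), Bglap and Bglap3 at 13 (95.5%), and Bglap2 and Bglap3 at 9 (96.9%). Over the whole transcripts, 74.7% of the 50-base windows of Bglap and 88.2% of those of Bglap2 also occurred in another osteocalcin gene, and for 100-base windows the shares were 56.3% and 57.0%. Reads from the shared stretches cannot be assigned by their sequence, so the division of reads between Bglap and Bglap2 is uncertain and their sum is also given. Bglap3, which is reported from kidney and other tissues more than from bone, had 0.0918 to 0.829 RPKM and did not reach the mean of 0.5 RPKM.

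Upstream sequences are shown for the members whose 250 bases before the annotated start, in RefSeq on GRCm38.p6, hold the letters bound by RUNX factors (ACCACA, or TGTGGT on the other strand). The 6 members with an entry had 8 entries, and 3 of these held the letters, those of Bglap, Spp1 and Runx2. Another entry of Spp1 (chr5:104435942-104436191, plus strand) did not hold them. The 150 bases nearest the start are given 5′ to 3′ on the gene's strand, with these letters in capitals, for Bglap (chr3:88384467-88384616, minus strand), Spp1 (chr5:104434961-104435110, plus strand) and Runx2 (chr17:44814628-44814777, minus strand).
Bglap: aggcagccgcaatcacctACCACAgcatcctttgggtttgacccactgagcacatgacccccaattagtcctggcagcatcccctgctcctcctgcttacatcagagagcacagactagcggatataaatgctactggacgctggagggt
Spp1: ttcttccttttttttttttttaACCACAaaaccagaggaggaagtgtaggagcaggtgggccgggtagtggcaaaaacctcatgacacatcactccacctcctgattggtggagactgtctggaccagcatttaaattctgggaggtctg
Runx2: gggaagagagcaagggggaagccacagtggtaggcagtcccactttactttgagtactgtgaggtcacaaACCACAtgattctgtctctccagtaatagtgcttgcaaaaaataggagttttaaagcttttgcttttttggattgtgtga
The letters began 132 bases before the start in Bglap, 128 in Spp1 and 80 in Runx2. They occurred on either strand in 14.05% of the 32851 promoters of the same table. A match is a description of the sequence and not evidence of binding. No entry was found for Sp7, Dlx5 and Bglap2.

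On GRCm38 in GENCODE M21, the osteocalcin genes Bglap2 (chr3:88377736-88378699) and Bglap (chr3:88383501-88384464) lie 4802 bases apart on the minus strand, and Ibsp (chr5:104299171-104311469) and Spp1 (chr5:104435118-104441050) lie 123649 bases apart on the plus strand. The other members are Postn (chr3:54361109-54391037, plus), Sp7 (chr15:102356606-102367182, minus), Dlx5 (chr6:6877805-6882085, minus), Sparc (chr11:55394500-55423183, minus) and Runx2 (chr17:44495987-44814797, minus). Runx2 overlaps Supt3 and the antisense genes Runx2os1, Runx2os2 and Runx2os3, and Spp1 overlaps Gm42793. The library kit does not keep strand, so reads from their shared stretches cannot be told apart.

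Each RPKM value was relative to a number of reads that ranged from 7067512 to 21363584 between libraries, so that 3 reads on a gene of 1 kb stood for 0.140 to 0.424 RPKM. Members had from 16 reads (Dlx5) to 141100 reads (Sparc) in a mouse. The osteoblast markers Alpl, Col1a1 and Col1a2 and all 8 osteocyte markers passed the minimum, and the osteocyte markers summed to 184 to 597 RPKM in Control and 267 to 609 RPKM in HLU. Marrow transcripts were also abundant, with 8 granulocyte markers summing to 17987 to 38601 RPKM in Control and 12770 to 45471 RPKM in HLU. The 11 erythroid markers summed to 3132 to 8778 RPKM in Control and 1703 to 4572 RPKM in HLU, and no marker was at 0 in all mice.

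Sparc was the most abundant of the 9 transcripts in Control mice, and Dlx5 the least. Mean abundance was 1011 ± 413 RPKM for Sparc, 523 ± 190.3 for Ibsp and 419 ± 132 for Spp1 (SD, n = 8). Postn at 82.6 ± 36.04, Bglap2 at 80.3 ± 54.8 and Bglap at 63.0 ± 41.4 RPKM formed a middle group. The transcription factors came last, with 17.4 ± 7.33 RPKM for Sp7, 6.91 ± 1.80 for Runx2 and 3.38 ± 1.68 for Dlx5. Neighbours in this order were compared within mice by a two-sided exact paired permutation test, with adjustment over 8 pairs and a smallest possible p of 0.0078. Sparc exceeded Ibsp in 7 of 8 mice (adjusted p = 0.0375), Spp1 exceeded Postn in 8 of 8 (adjusted p = 0.0208) and Bglap exceeded Sp7 in 7 of 8 (adjusted p = 0.0312). Sp7 over Runx2 and Runx2 over Dlx5 each held in 8 of 8 mice (adjusted p = 0.0208 for both). Ibsp and Spp1 (adjusted p = 0.196), Postn and Bglap2 (adjusted p = 0.555) and Bglap2 and Bglap (adjusted p = 0.188) did not differ beyond their spread. The order depends on the gene length that the deposited RPKM used, which was 5372 bases for Spp1 and 17258 bases for Runx2. With the longest coding transcript in GENCODE M21, 1507 bases for Spp1, Spp1 stood above Ibsp (log2 difference of Ibsp minus Spp1 -1.53, adjusted p = 0.0104, exact test) and Postn exceeded Bglap2 by 2.10 on the log2 scale (adjusted p = 0.0104, exact test). Bglap was then above Bglap2 (log2 difference of Bglap2 minus Bglap -0.38, adjusted p = 0.133, exact test), and Sp7 over Runx2 was 0.32 (adjusted p = 0.0804, exact test).

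None of the 9 genes passed either threshold between HLU and Control. Requiring an adjusted p below 0.1 and 1.2-fold or more, the count was 0 of 9, as it was for all 16973 features tested (0%). At an unadjusted p under 0.05 and 1.2-fold it was also 0 of 9, where 5.87% of all features passed, 1.11% higher and 4.76% lower in HLU, and without the fold limit 6.18% did. Spp1, Postn and Ibsp had the higher mean log2 value in HLU and the other 6 the lower, of which Runx2, Sp7, Dlx5 and Sparc turned higher under median-of-ratios scaling. With erythroid and granulocyte marker scores as covariates, Dlx5, Bglap and Bglap2 turned higher and Ibsp and Postn lower, none past a threshold. Over all features, 188 were higher and 808 lower at the unadjusted threshold, and 381 and 395 under median-of-ratios scaling. The median log2 fold change over all features was -0.10 and moved to -0.01 under median-of-ratios scaling and to 0.00 under quantile normalization. The log2 fold change of each of the 9 genes is therefore given also relative to the median of -0.10. All 9 genes overlapped between the groups. The share of all features that overlapped is not given here, so this cannot be called particular to these genes. In whole bone, fewer cells of a type and less RNA per cell cannot be told apart.

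**Figure D1:**
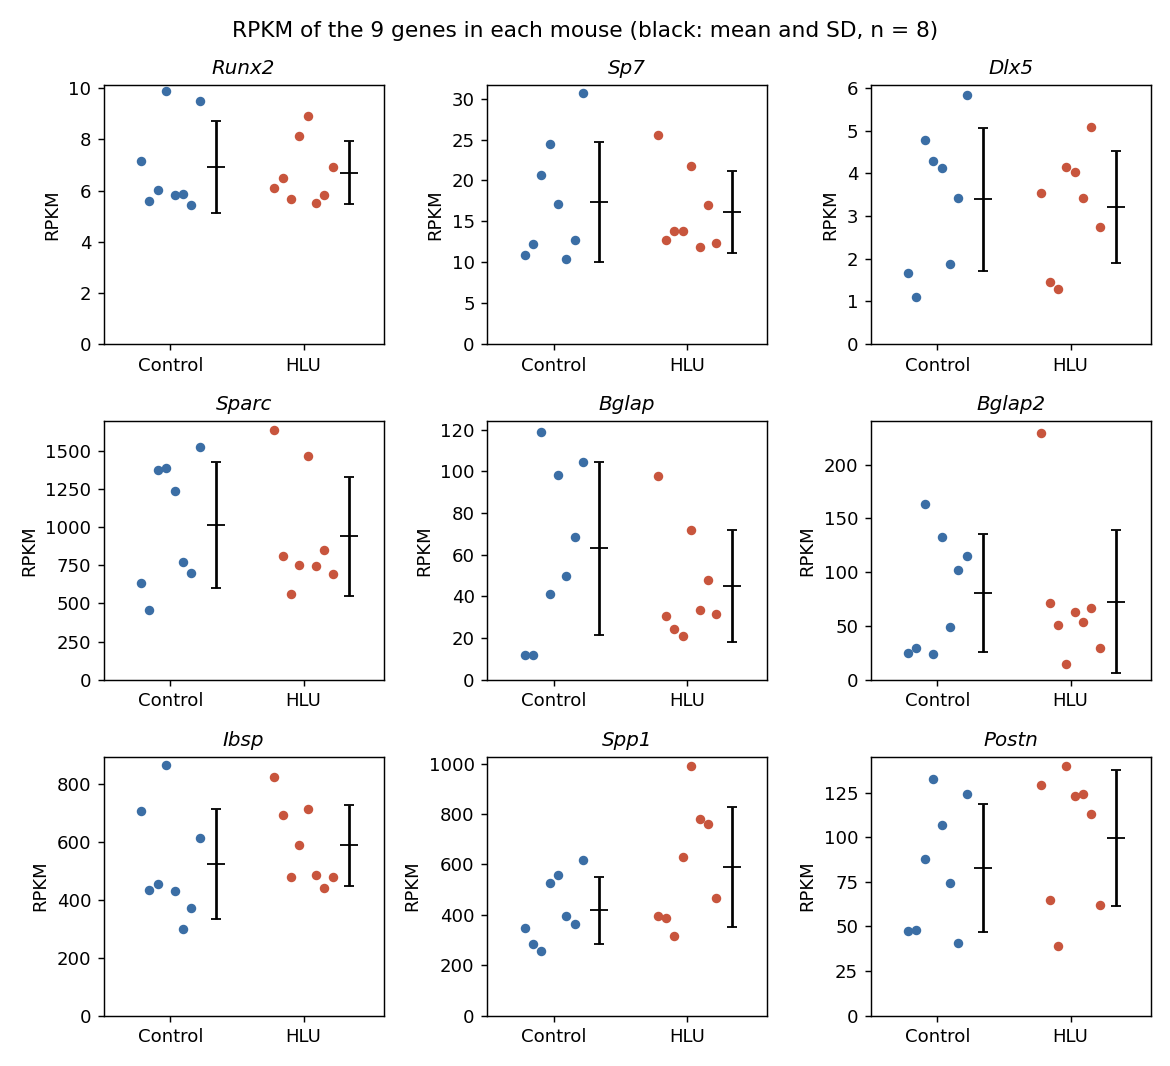
Transcript abundance (RPKM, vertical axes from 0) of each gene in each mouse, Control in blue and HLU in red, with the mean and SD of 8 mice in black. The groups overlap for every gene, and 4 HLU mice lie above the highest Control mouse for Spp1.

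The transcription factors had nearly the same group means. Runx2 ranged from 5.44 to 9.89 RPKM in Control (median 5.94) and from 5.50 to 8.92 RPKM in HLU (median 6.29). Its highest mice were Control 4 and Control 8, and the ranges overlapped almost fully. HLU over Control gave a log2 fold change of -0.03 (SE 0.15, adjusted p = 0.967, limma; two-sided exact permutation p = 0.850), or 0.07 relative to the median feature, and its 95% interval ran from -0.35 to 0.29. Runx2 was also steadier between mice than most features, with a within-group SD of 0.30 on the log2 scale at percentile 25.6 of the features tested.

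Sp7 ranged from 10.4 to 30.6 RPKM in Control (median 14.9) and from 11.8 to 25.5 RPKM in HLU (median 13.8). Control 8 was highest, and every HLU mouse lay within the Control range. Its log2 fold change was -0.06 (SE 0.24, interval -0.56 to 0.44, adjusted p = 0.951, limma; exact permutation p = 0.810), or 0.04 relative to the median feature. Dlx5 ranged from 1.097 to 5.83 RPKM in Control (median 3.77) and from 1.28 to 5.07 RPKM in HLU (median 3.48). It was below 2 RPKM in Control 1, Control 2 and Control 6 and in HLU 2 and HLU 3, and above that in the others. Dlx5 had a log2 fold change of -0.02 (SE 0.35, interval -0.77 to 0.73, adjusted p = 0.987, limma; exact permutation p = 0.960), or 0.08 relative to the median feature.

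Sparc and the osteocalcin genes varied widely within both groups. Sparc ranged from 455 to 1523 RPKM in Control (median 1005) and from 564 to 1638 RPKM in HLU (median 782). It left a gap between 851 and 1237 RPKM, with 6 mice above it (Control 3, 4, 5 and 8 and HLU 1 and 5) and 10 below. Its log2 fold change was -0.08 (SE 0.28, interval -0.68 to 0.52, adjusted p = 0.946, limma; exact permutation p = 0.792), or 0.02 relative to the median feature.

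Bglap ranged from 11.7 to 119 RPKM in Control (median 59.0) and from 21.2 to 97.8 RPKM in HLU (median 32.6). Control 1 and Control 2 were the lowest of all mice and Control 3 the highest, so the Control mice spanned the HLU range. The log2 fold change of Bglap was -0.26 (SE 0.50, interval -1.31 to 0.79, adjusted p = 0.898, limma; exact permutation p = 0.631), or -0.16 relative to the median feature. Without Control 1 it was -0.55, without Control 2 -0.54 and without Control 3 -0.07, none past a threshold. Bglap2 ranged from 24.2 to 164 RPKM in Control (median 75.8) and from 14.5 to 229.6 RPKM in HLU (median 58.5). HLU 1 was the highest mouse and HLU 4 the lowest, so the HLU mice spanned the Control range. Bglap2 had a log2 fold change of -0.19 (SE 0.52, interval -1.29 to 0.91, adjusted p = 0.933, limma; exact permutation p = 0.745), or -0.09 relative to the median feature. The log2 fold change of Bglap2 was -0.48 without HLU 1 and 0.08 without HLU 4.

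The sum of Bglap and Bglap2 was 143 ± 95.01 RPKM in Control and 117 ± 90.4 RPKM in HLU (SD, n = 8), with a log2 difference of -0.22 (exact permutation p = 0.681). The ratio of Bglap to Bglap2 ran from 0.404 in Control 2 to 1.69 in Control 4 with a median of 0.723, and it was above 1 in 5 mice (Control 4 and 6 and HLU 4, 5 and 8). Both genes were more variable between mice than most transcripts of like level: the within-group SD was 1.08 for Bglap and 1.14 for Bglap2 on the log2 scale, at percentiles 97.8 of 1368 and 98.3 of 924 features within 2-fold of their mean RPKM.

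Spp1 had the largest difference of the 9 in size, though it did not pass, and under other settings Bglap (-0.66 without the 2 smallest libraries) or Bglap2 (0.53 with the marker scores) exceeded it. It ranged from 258 to 616 RPKM in Control (median 378) and from 314.5 to 991 RPKM in HLU (median 549). HLU 4, 5, 6 and 7 lay above the highest Control mouse, and only HLU 3 was below the Control median. Mean abundance was 419 ± 132 RPKM in Control and 590.5 ± 238 RPKM in HLU (SD, n = 8), and the log2 fold change was 0.46 (SE 0.25, interval -0.08 to 0.99), or 0.56 relative to the median feature. The unadjusted p was 0.0884 and the adjusted p 0.744 (limma), and the exact permutation p was 0.105. Spp1 was higher in HLU under 28 of 28 other settings and passed the unadjusted threshold with 1.2-fold in 4 of them. These were median-of-ratios scaling (log2 fold change 0.55, adjusted p = 0.903), the replicate number as a block (0.46, adjusted p = 0.725), and leaving out Control 8 (0.55, adjusted p = 0.827) or HLU 3 (0.57, adjusted p = 0.542), all by limma. Without the 2 smallest libraries, Control 2 and HLU 5, the log2 fold change was 0.26.

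Ibsp ranged from 299 to 867 RPKM in Control (median 445) and from 439.7 to 825 RPKM in HLU (median 537). The HLU mice were the narrower group and lay inside the Control range, and all but HLU 7 exceeded the middle of the Control values. The log2 fold change was 0.21 (SE 0.21, interval -0.23 to 0.66, adjusted p = 0.795, limma; exact permutation p = 0.328), or 0.32 relative to the median feature. Postn ranged from 40.8 to 133 RPKM in Control (median 80.9) and from 38.9 to 140.1 RPKM in HLU (median 118). In HLU it fell into 5 mice between 113 and 140.1 RPKM (HLU 1, 4, 5, 6 and 7) and the other 3 at or below 65.1 RPKM. The Control mice were spread over much of the same range, and of them Control 3, 5 and 6 lay between these sets. The log2 fold change of Postn was 0.28 (SE 0.31, interval -0.38 to 0.94, adjusted p = 0.817, limma; exact permutation p = 0.408), or 0.38 relative to the median feature. Leaving out 1 mouse moved it to between 0.15 (without Control 7) and 0.45 (without HLU 3), and Ibsp to between 0.11 (without Control 6) and 0.33 (without Control 4).

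**Figure D2:**
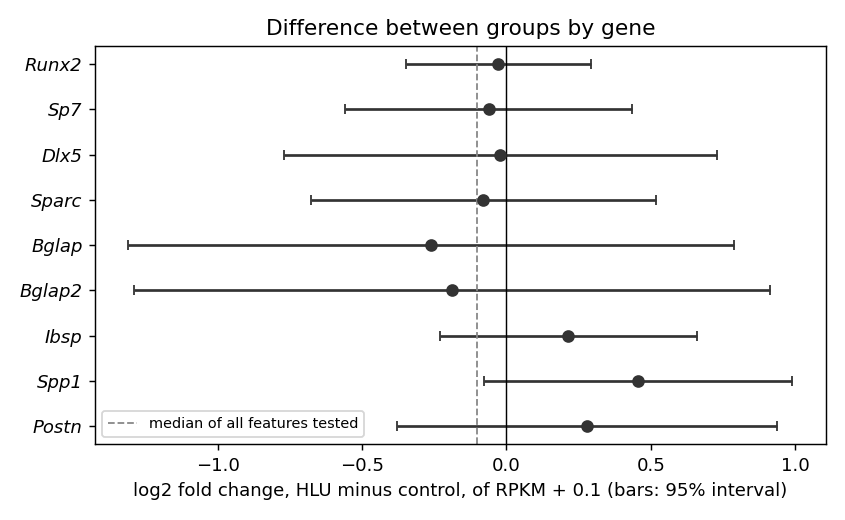
Log2 fold change of HLU over Control for each gene (points) with its 95% interval (bars) on the log2(RPKM + 0.1) scale, and the median of all features tested (dashed line, -0.10). Every interval includes 0, and the points of Runx2, Sp7, Dlx5 and Sparc, between -0.08 and -0.02, turned positive under median-of-ratios scaling.

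Ratios of members within a mouse do not depend on the scaling factor of a library, apart from the pseudocount, and none differed between the groups beyond its spread (two-sided exact permutation tests, adjusted over 5 ratios). The log2 ratio of Sp7 to Runx2 differed by -0.03 (adjusted p = 0.982) and that of Dlx5 to Runx2 by 0.01 (adjusted p = 0.982). For matrix genes the difference was -0.14 for summed osteocalcin to Sparc (adjusted p = 0.982) and 0.24 for Spp1 to Ibsp (adjusted p = 0.982, exact permutation tests). For Postn to Sparc it was 0.36 (exact permutation p = 0.131, adjusted p = 0.653). Postn to Sparc was above the Control median in 5 of 8 HLU mice.

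Other genes of the same programme gave few calls. Of 25 other transcription regulators of osteoblasts, 18 were tested, and 0 passed at an unadjusted p under 0.05 with 1.2-fold, against 5.87% of all features. Their median log2 fold change was -0.05. The most abundant were Atf4, which activates osteocalcin transcription, with 74.3 ± 12.2 RPKM in Control and 64.96 ± 11.6 RPKM in HLU (log2 fold change -0.20), and Cbfb, the partner subunit of Runx proteins, with 35.5 ± 8.19 and 40.4 ± 8.70 RPKM (0.19). Of 20 genes of type I collagen, its processing and mineralization, all tested, 0 passed upward and 1 downward, Slc20a1, a phosphate transporter, at 21.5 ± 4.32 RPKM in Control and 16.1 ± 4.96 RPKM in HLU (log2 fold change -0.45, unadjusted p = 0.0301, adjusted p = 0.744, limma). Col1a2 and Col1a1, the chains of type I collagen, had log2 fold changes of -0.10 and -0.13, and the median of the list was 0.01.

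Noncollagenous matrix genes other than the members were mostly higher in HLU, 19 of the 22 tested of 25, with a median log2 fold change of 0.29 against -0.10 for all features. They are not separate observations, since 9 of the 22 had r over 0.7 with Postn, where 4.67% of all features did. The list is given under the main setting only. Only Mepe, an osteocyte phosphoglycoprotein, passed the unadjusted rule among these 22, at 139.7 ± 75.1 RPKM in Control and 226 ± 78.5 RPKM in HLU (log2 fold change 0.79, unadjusted p = 0.0247, adjusted p = 0.744, limma). The proteoglycans Dcn (decorin) and Lum (lumican), the most abundant of the list, had log2 fold changes of 0.52 (unadjusted p = 0.0770) and 0.42 (unadjusted p = 0.233). The share of list members that passed was 1 of 22, against 5.87% of all features. Mitochondrial transcripts made up 9.91% of listed reads in Control and 13.0% in HLU on average, and the reads on listed features were 88.8% and 85.0% of the library's number; their part in the difference was not tested.

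Many of the members varied together between mice of the same group. Pearson's r was computed over the 16 mice on log2(RPKM + 0.1) values centred on each group's mean, with 100000 permutations within groups and adjustment over 36 pairs. Of these pairs 32 were positive, 18 had an adjusted p under 0.1 and 13 an adjusted p under 0.05. Each r was also set against the r of the gene named first with 16964 other features. The 18 pairs then ranged from percentile 79.7 (Bglap and Postn) to 99.9 (Sp7 and Sparc). Runx2 with Spp1 was at 84.3 and with Sp7 at 87.8, so some of these pairs were not rare among features in general. By Spearman's rho, 19 pairs had an adjusted p under 0.1, and 16 were called by both. Leaving out the 2 mice farthest from the median of the gene named first in a pair kept an unadjusted p under 0.05 for 10 of the 18 pairs and not for the other 8.

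**Figure D3:**
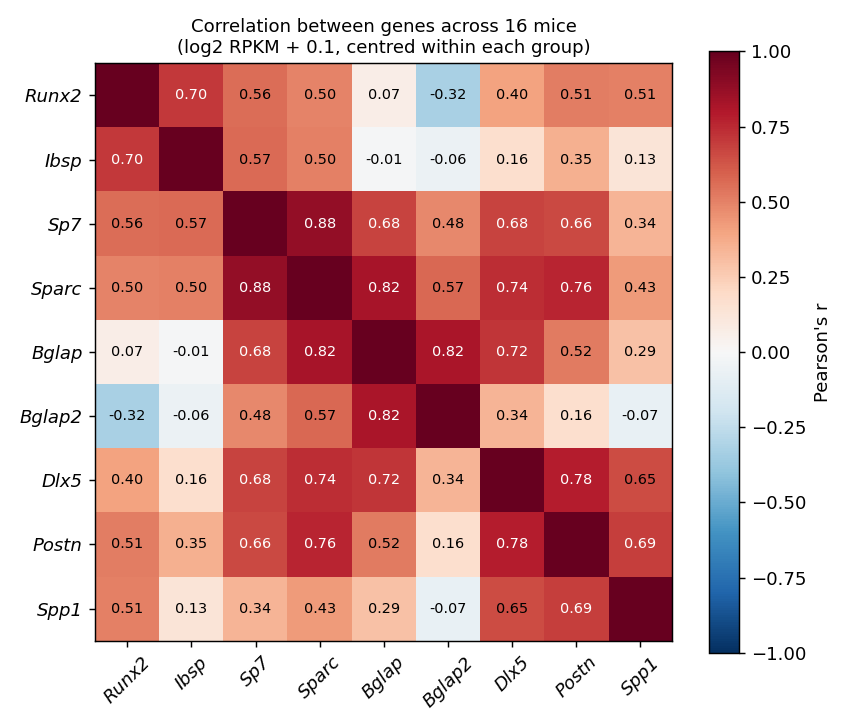
Pearson's r between each pair of genes over 16 mice, on log2(RPKM + 0.1) values centred within each group, with colours from -1 (blue) to 1 (red). Sp7, Sparc and Bglap share r from 0.68 to 0.88, and Runx2 has r of 0.07 with Bglap and -0.32 with Bglap2, which were 0.51 and -0.10 with erythroid and granulocyte scores as covariates.

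**Figure D4:**
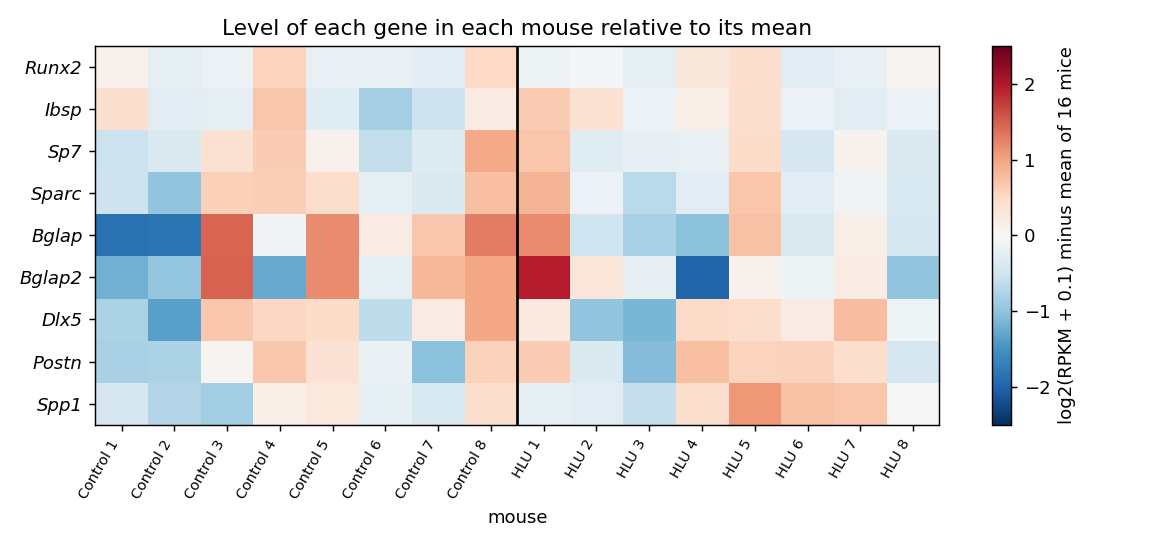
Log2(RPKM + 0.1) of each gene (rows) in each mouse (columns) minus its mean over 16 mice, blue below and red above, with a line between Control and HLU. Control 1 and Control 2 are below the mean for Sp7, Sparc, both osteocalcin genes, Dlx5, Postn and Spp1, and Control 8 and HLU 5 are above it for all 9 genes.

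Sp7, the gene of osterix, had an adjusted p under 0.1 with 4 of the 6 matrix genes (Sparc, Bglap, Postn and Ibsp). Sp7 and Sparc had r = 0.88 (rho 0.86, adjusted p = 0.00162 for r; 0.87 in Control and 0.90 in HLU), and r was 0.84 without Control 8 and HLU 1. Within the 10 mice below the gap in Sparc r was -0.03 and within the 6 above it 0.94; the split was made on Sparc itself after seeing the data, which narrows the range of Sparc in each subset. Sp7 also went with Bglap (r = 0.68, rho 0.66, adjusted p = 0.0256), Dlx5 (r = 0.68, rho 0.75, adjusted p = 0.0256) and Postn (r = 0.66, rho 0.69, adjusted p = 0.0256). Without Control 8 and HLU 1 these were 0.57, 0.65 and 0.59, and the permutation p for Bglap was then 0.0806. With Ibsp r was 0.57 (rho 0.54, adjusted p = 0.0891), 0.46 without the same mice. Bglap2 (r = 0.48, adjusted p = 0.120) and Spp1 (r = 0.34, adjusted p = 0.266) did not pass.

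Sparc and Bglap had r = 0.82 (rho 0.76, adjusted p = 0.00312), 0.78 without HLU 1 and HLU 5. It was 0.67 in the 10 mice below the gap and 0.11 in the 6 above. Sparc and Postn had r = 0.76 (rho 0.80, adjusted p = 0.0109), and 0.53 and 0.38 in the mice below and above the gap. Bglap and Bglap2, whose reads overlap in sequence, had r = 0.82 (rho 0.83, adjusted p = 0.00162), and 0.85 without Control 1 and Control 2.

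Dlx5 went with Postn (r = 0.78, rho 0.76, adjusted p = 0.00927), Sparc (r = 0.74, rho 0.75, adjusted p = 0.0141), Bglap (r = 0.72, rho 0.66, adjusted p = 0.0185) and Spp1 (r = 0.65, rho 0.57, adjusted p = 0.0256). Without Control 2 and HLU 3, its lowest mice, r was 0.70, 0.59, 0.60 and 0.51, and for Spp1 the permutation p was then 0.0729. Within Control mice Dlx5 and Sparc had r = 0.93 and within HLU mice 0.47, a difference that was not tested. Spp1 and Postn had r = 0.69 (rho 0.61, adjusted p = 0.0212), and 0.62 without HLU 3 and HLU 5.

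Runx2 had an adjusted p under 0.1 with Ibsp, Sp7 and Spp1. Its strongest partner was Ibsp (r = 0.70, rho 0.70, adjusted p = 0.0212), and without Control 4 and Control 8, its highest mice, r was 0.51 (permutation p = 0.0569). Runx2 and Sp7 had r = 0.56 (rho 0.55, adjusted p = 0.0891), and 0.13 without the same 2 mice. These mice were chosen by their Runx2 level, which narrows its range and can lower r. For Runx2 and Spp1 r was 0.51 (rho 0.31, adjusted p = 0.0960), and 0.32 without these mice. With Bglap r was 0.07 (adjusted p = 0.871) and with Bglap2 -0.32 (adjusted p = 0.305). Ibsp in turn had r of -0.01 with Bglap, -0.06 with Bglap2 and 0.13 with Spp1, which lies 123649 bases from it, all with an adjusted p of at least 0.697.

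**Figure D5:**
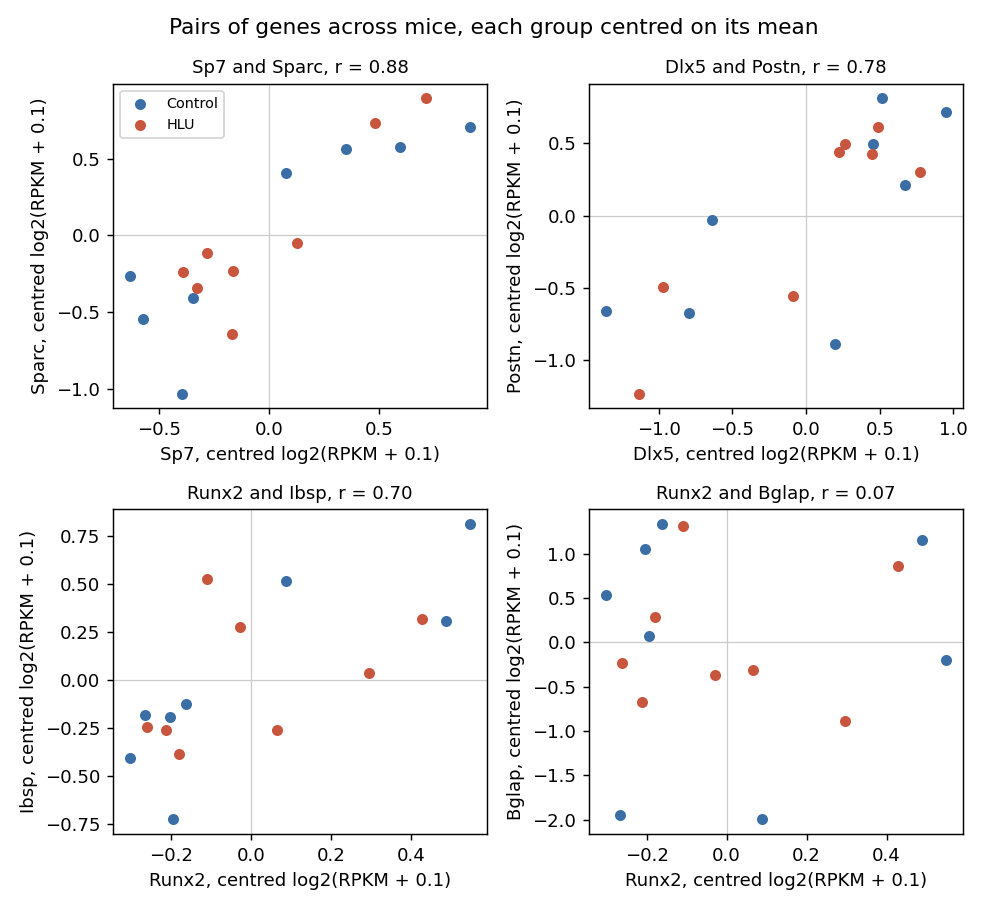
Log2(RPKM + 0.1) of 4 pairs of genes in 16 mice, centred on the mean of each group, with Control in blue and HLU in red. Sp7 and Sparc (r = 0.88) and Dlx5 and Postn (r = 0.78) rise together. Runx2 and Ibsp (r = 0.70) had r of 0.51 without Control 4 and Control 8. Runx2 and Bglap (r = 0.07) show no common rise, and r was 0.51 with erythroid and granulocyte scores as covariates.

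The transcripts most like each member were sought among 16964 features, by the same centred r over 16 mice and as a description. Those nearest to Sparc were Col1a2 (r = 0.98), Ano1 (0.97), Col5a2 (0.96), Slc36a2 (0.94) and Entpd3 (0.94), and r exceeded 0.8 for 0.790% of features. Col1a2 and Col5a2 encode fibrillar collagen chains, and Col1a2 stood at 341 ± 155 RPKM in Control and 309.7 ± 138 RPKM in HLU. Sp7 was nearest to Bmp3 (0.94), Slc36a2 (0.94), Nrbp2 (0.93), Ppic (0.92) and Tmie (0.91), with 0.713% of features above 0.8. Postn was nearest to Antxr1 (0.96), Dcn (0.96), Wwtr1 (0.94), Pkd2 (0.94) and Ift81 (0.94), with 1.80% above 0.8. Wwtr1 encodes the transcriptional coactivator TAZ.

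For Dlx5 the nearest were Gm15417 (0.96), Dock9 (0.95), Fam198a (0.95), Sybu (0.95) and Fzd1 (0.94), the last a Wnt receptor, with 2.43% of features above 0.8. Runx2 was nearest to Pgrmc1 (0.96), Invs (0.95), Arf4 (0.94), Zfp606 (0.94) and Brwd1 (0.93), none of them a matrix gene, with 1.29% above 0.8. Bglap was nearest to Efs (0.94), Metrnl (0.93), Itga10 (0.92), Prpsap1 (0.92) and Spns2 (0.92), and Bglap2 to Clip2 (0.95), Rcn3 (0.94), Rarg (0.93), Lrsam1 (0.92) and Lrp5 (0.92), with 1.43% and 4.37% above 0.8. The lists of the 2 osteocalcin genes shared no transcript. Ibsp and Spp1 had the fewest close partners, 0.289% and 0.271% of features above 0.8. Ibsp was nearest to Gm16332 (0.94), Heph (0.89), Cdh11 (0.89), Cfhr2 (0.89) and Ago3 (0.88), and Spp1 to Fam115c (0.88), Tmem2 (0.87), Jag1 (0.87), Smad1 (0.87) and Pam (0.86).

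Among the other genes of the programme, Sp7 and Sparc each had r over 0.7 with 12 of the 20 genes of collagen I, its processing and mineralization, where 2.18% and 2.499% of all features reached it, and Bglap with 11 of 20 where 6.36% did. Runx2 did so with 3 of 20, where 4.70% of all features did. Dlx5 and Postn had r over 0.7 with 13 and 9 of the 22 other noncollagenous genes, where 6.75% and 4.67% of all features reached it, and Runx2 and Bglap2 with 0, where 4.70% and 11.3% did. Among the 18 other regulators, Runx2 had r of 0.79 with Cbfb and 0.78 with Runx1, and Dlx5 0.89 with Twist1 and 0.78 with its chromosomal neighbour Dlx6. These are descriptions over the same 16 libraries.

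Markers of other cell types moved with some members, and their part in the covariation was not tested. Their counts at the unadjusted rule stand against 4.76% of all features lower and 1.11% higher. The median log2 fold change of all features was -0.10, and -0.01 under median-of-ratios scaling. The share of all features higher or lower at any size is not given here, so counts by direction alone cannot be called particular to a list. The mean of 8 granulocyte markers, led by S100a8 and S100a9, had r of -0.79 with Dlx5 and -0.73 with Postn, and -0.02 with Runx2. The 11 erythroid markers, led by Hbb-b2 and Hbb-b1, had r of -0.66 with Postn; 11 of 11 were lower in HLU and 4 passed the unadjusted rule downward, with a median log2 fold change of -0.60. Osteocyte markers (Mepe, Dmp1 and 6 others) had r of 0.85 with Dlx5, 0.80 with Sparc and 0.79 with Sp7. Of these markers 8 of 8 were higher in HLU, 1 past the unadjusted rule, the same Mepe as above. Mepe and Dmp1 also belong to the list of other noncollagenous matrix genes, so these lists are not separate observations. Osteoclast markers, led by Ctsk and Acp5, had r of 0.71 with Sparc and 0.70 with Spp1; they summed to 877 to 2142 RPKM in Control and 866 to 2091 RPKM in HLU, and 1 of 9 tested passed, downward.

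The 5 cartilage and tendon markers tested of 8, led by Tnmd and Col2a1, had r of 0.86 with Bglap, 0.77 with Bglap2, 0.74 with Sparc and 0.70 with Dlx5, at summed levels of 16.2 to 70.3 RPKM in Control and 18.5 to 71.8 RPKM in HLU; 0 of 5 passed. Adipocyte markers, led by Fabp4 and Adipoq, had r of 0.63 with Bglap2 and 0.62 with Bglap; 1 of 5 passed, upward, and they summed to 408 to 780.1 RPKM in Control and 486 to 828 RPKM in HLU. Endothelial markers, led by Pecam1 and Cdh5, had r of 0.70 with Bglap2 and 0.69 with Bglap, and 0 of 7 passed, at 58.7 to 76.2 RPKM in Control and 60.9 to 89.8 RPKM in HLU. Macrophage markers, led by C1qb and C1qa, had r of -0.61 with Postn and -0.46 with Spp1 and Dlx5, and 0 of 8 passed, at 151 to 322 RPKM in Control and 103 to 333.3 RPKM in HLU. The log2 number of reads of a library had r between -0.25 and 0.14 with the members.

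With the erythroid and granulocyte scores as covariates, 28 of the 36 pairs of members had an adjusted p under 0.1 in place of 18. How far r moved for features in general is not given here. The rise is therefore not shown to be particular to the members. Several of the weak pairs moved: r of Runx2 went from 0.40 to 0.93 with Dlx5 (adjusted p = 0.000600), from 0.50 to 0.65 with Sparc (adjusted p = 0.0215), from 0.51 to 0.69 with Postn (adjusted p = 0.0203) and from 0.07 to 0.51 with Bglap (adjusted p = 0.0531). It went from 0.56 to 0.66 with Sp7 and from 0.51 to 0.64 with Spp1 (adjusted permutation p = 0.0220 for both). With Bglap2 it went from -0.32 to -0.10 (adjusted p = 0.728). With Ibsp it fell from 0.70 to 0.61 (adjusted permutation p = 0.0376). Ibsp went from -0.01 to 0.62 with Bglap (adjusted p = 0.0220), from -0.06 to 0.47 with Bglap2 (adjusted p = 0.0592) and from 0.16 to 0.71 with Dlx5 (adjusted p = 0.0203), while with Spp1 it was 0.21 (adjusted p = 0.512). Ibsp and Bglap also had r of -0.24 within Control and 0.57 within HLU, a difference that was not tested. Not all moves with the scores were upward. For Dlx5, r fell from 0.72 to 0.57 with Bglap, from 0.34 to 0.03 with Bglap2 and from 0.65 to 0.49 with Spp1. It also fell for Spp1 and Postn (0.69 to 0.55), Sparc and Spp1 (0.43 to 0.23) and Bglap and Bglap2 (0.82 to 0.71). Without the 2 smallest libraries 13 pairs had an adjusted p under 0.1. In these fits Sp7 and Sparc had r of 0.85 and 0.90.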

How the data were processed

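RNA of femoral cortical bone was sequenced in 16 mice, grouped by the titles of the samples. TruSeq v2 libraries were sequenced 8 per HiSeq lane by the authors, who deposited RPKM values per gene. The submitters' notes name TopHat2, mm9 and DESeq2. Annotation, counting, gene lengths and the lane of each mouse are not given in the sources used here. The files hold no coordinates, so positions are those of GENCODE M21 on GRCm38.

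A minimum mean of 0.5 RPKM was set for a feature to be tested. The groups were compared by limma 3.58.1 in R 4.3.3 on the scale log2(RPKM + 0.1), with variances moderated along a trend and Benjamini-Hochberg adjustment over the 16973 features kept. All p-values adjusted over features are from limma. Single values were compared by two-sided exact permutation over 12870 splits (smallest p 0.000155) (Python 3.11.15, with scipy 1.17.1 and pandas 2.3.3). Fold changes on this scale understate the change of low genes. The steps of the RPKM values gave whole reads, within 0.01 reads, for 100% of tested features, and limits set by reads cover counting error only. limma and the correlation test were tested on simulated data. The tests measure the spread between these mice.

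The members, the gene and marker lists and the tests were chosen with earlier results of these data known. Named beside the members were, from each list of related genes, those at an unadjusted p under 0.05 (up to 4) and the 2 with the highest mean RPKM, from each marker list the 2 highest, and the 5 transcripts with the highest r to each member; the correlations of single listed genes were picked after their values were seen. Some listed genes and 2 marker lists are not reported here. The alternatives were 10 settings, leaving out each of 16 mice, and 2 added after seeing the data, as were the length used for the order of levels and the gap in Sparc. Sample numbers did not pair the mice: 3 of 8 same-numbered pairs had a correlation of deviations over 0.1 (range -0.17 to 0.51).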

Additional observations from a re-analysis of the deposited data

Results flagged for a closer look

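In 30 groups of 8 mice, the highest and the lowest value were each set against the others by Dixon's ratio, the gap to the nearest mouse over the range of the group. Bglap2 in HLU 1, at 229.6 RPKM, stood apart from the other HLU mice (ratio 0.734), as did the sum of Bglap and Bglap2 in the same mouse, at 327 RPKM (ratio 0.660). Chance flags about 1 in 20 groups if the values are normally distributed. The ratios were taken on RPKM and not on the log2 scale of the tests, so a flag can depend on the scale. The sum contains Bglap2, so these are not separate observations. HLU 1 was also the highest HLU mouse for Bglap (97.8 RPKM), Sp7 (25.5 RPKM), Sparc (1638 RPKM) and Ibsp (825 RPKM), and the ratio of Bglap to Bglap2 in it was 0.426. Without HLU 1 the log2 fold change of Bglap2 was -0.48 in place of -0.19, with an adjusted p of 0.934 (limma).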

How the results depend on the processing

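None of the 9 genes reached an adjusted p under 0.1 in the 28 other settings, with the lowest adjusted p, 0.419 (limma), for Spp1. Several small differences changed sign, and the cause was not tested. Under median-of-ratios scaling the log2 fold change was 0.064 for Runx2, 0.032 for Sp7, 0.071 for Dlx5 and 0.014 for Sparc, and under quantile normalization 0.088 for Runx2, 0.063 for Sp7 and 0.086 for Dlx5. With the percent of reads on listed features as a covariate, Runx2 was at 0.067. With erythroid and granulocyte scores as covariates, Dlx5 was at 0.012, Bglap at 0.33, Bglap2 at 0.53, Ibsp at -0.080 and Postn at -0.0086. The log2 ratio of Dlx5 to Runx2 differed by -0.00040 with a pseudocount of 1 RPKM.

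Leaving out 1 mouse at a time gave log2 fold changes of -0.089 to 0.051 for Runx2, -0.16 to 0.070 for Sp7, -0.21 to 0.14 for Dlx5, -0.23 to 0.022 for Sparc, -0.48 to 0.084 for Bglap2, 0.11 to 0.33 for Ibsp, 0.15 to 0.45 for Postn and 0.34 to 0.57 for Spp1. The log2 ratios differed by -0.15 to 0.040 for Sp7 to Runx2, -0.15 to 0.14 for Dlx5 to Runx2 and -0.33 to 0.035 for osteocalcin to Sparc. Features higher at the unadjusted rule then numbered 117 to 363 and lower 471 to 1385, with 363 and 1385 without HLU 2, 117 and 471 without HLU 7, 310 higher without HLU 3, and 505, 512 and 488 lower without Control 6, Control 7 and HLU 1. At the adjusted rule 0 to 1 were higher (1 without HLU 2).

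Of all features, 188 were higher and 808 lower at the unadjusted rule. Median-of-ratios scaling gave 381 and 395, quantile normalization 460 and 364, and the 2 scores as covariates 1475 and 1784. Features higher numbered 391 of 29628 tested with no filter on low values and 106 of 12084 with a minimum of 2 RPKM. Without the 2 smallest libraries they were 108 of 16973, the same number tested as for the 188. At the adjusted rule, in place of 0, there were 122 higher and 240 lower with the 2 scores, 1 higher with no trend in the variances, 1 higher with the percent of reads on listed features, and 1 lower with no filter. The pairs of members called numbered 28 with the 2 scores in place of 18. Below the gap in Sparc, the r of Sp7 and Sparc was -0.035. With transcript lengths from GENCODE M21, the log2 level of Ibsp over Spp1 was -1.53, of Bglap2 over Bglap -0.38, and of Postn over Bglap2 2.10.

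The replicate number as a block gave 199 features higher and 840 lower at the unadjusted rule and 0 at the adjusted rule. With the block Spp1 had an unadjusted p of 0.0263 and an adjusted p of 0.725 (limma), and no other member passed. Only 1 of 8 mice correlated best with its own number, so the numbers are not taken to pair the mice. Depth limits Dlx5 most, at 16 reads in its lowest mouse.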
